A study of Rattus norvegicus with 10 samples.

Results

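The widest H3K4me3 intervals of RCS cells were described here by the SOX9 and SOX6 peaks they hold and by the other histone marks in and around them. RCS is a cell line from a rat chondrosarcoma, a tumour of cartilage-forming cells. An interval was taken when it met an H3K27ac interval by at least 1 bp and measured 4000 bp or more from start to end. The 749 members, chosen by the measured H3K4me3 width and H3K27ac overlap, are part of the 23116 deposited H3K4me3 intervals. H3K27ac did not narrow the choice, since every one of the 749 intervals of that width met it, whereas 3380 of the intervals under 4000 bp did not. The 18987 narrower intervals that met H3K27ac served for comparison. Width and H3K27ac are therefore given as descriptions, while SOX9, SOX6, H3K4me1 and H3K9me3 come from libraries that the choice did not use.

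The series holds 10 chromatin immunoprecipitation sequencing samples of RCS cells. They comprise 1 library each with antibodies against SOX9, SOX6, H3K27ac, H3K4me1, H3K4me3 and H3K9me3, and 4 input libraries made without an antibody, 1 of which is named for the 3 methylation marks together. The labels name no treatment, genotype or comparison group, and all samples carry the same cell type. No antibody has a second library. A difference between wide and narrower intervals therefore has no replicate check and no test over samples, and the 95% intervals in parentheses cover counting error only.

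H3K4me3 is the trimethylation of a lysine of histone H3 at active promoters, where most intervals are short. Broad H3K4me3 domains are known as a feature of highly transcribed genes and of genes that define a cell type. H3K27ac, the acetylation of another lysine of H3, marks active promoters and enhancers, and H3K4me1 usually borders H3K4me3 and fills enhancers. SOX9 is the master regulator of chondrocyte differentiation, and SOX6, which has no activation domain of its own, cooperates with it on cartilage genes. Genes could not be assigned, because no annotation of rn5, the genome build of the peaks, was used here.

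The wide intervals had a median width of 4708 bp (quartiles 4288 and 5472 bp) and ran to 14293 bp, against a median of 1654 bp (1009 and 2320 bp) for the narrower ones. Together they covered 3.86 Mb, against 32.8 Mb. By width, 464 measured 4000 to 4999 bp, 158 measured 5000 to 5999 bp, 94 measured 6000 to 7999 bp and 33 measured 8000 bp or more. The score that the authors gave each peak could not order them, as 742 of the 749 had the same score of 3100, which 46.8% of narrower intervals also had. The input libraries held 36873004 to 131858579 reads, and 53.4% to 53.5% of them aligned. Chromosomes 7, 9, 11 and 16, with 1.63 to 2.05 times the input read density of the median chromosome, carried 23.8% of the wide and 18.0% of the narrower intervals. Chromosome 11 did not share in this, as 3.10% of its acetylated intervals were wide, against 3.54% on the chromosomes other than these 4. Over the 21 chromosomes, which share the same libraries, the rank correlation of the percent wide with input density was 0.57, given as a description.

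SOX9 and SOX6 peaks were each present in over 0.5 of the wide H3K4me3 intervals. The SOX6 list is the longer one, with 19355 peaks against 14782 for SOX9, and SOX6 was the more frequent factor in wide and narrower intervals alike. A SOX9 peak centre lay in 426 wide intervals, or 56.9% (Wilson 53.3% to 60.4%), and in 23.7% (23.1% to 24.3%) of narrower ones. SOX6 centres lay in 492 wide intervals, or 65.7% (62.2% to 69.0%), and in 27.8% (27.1% to 28.4%) of narrower ones. Both factors were present in 45.1% of wide intervals (338), SOX6 alone in 20.6% (154), SOX9 alone in 11.7% (88) and neither in 22.6% (169). Among narrower intervals 15.0% had both and 63.5% had neither. A longer interval holds more peaks by its length alone, so these shares are read together with the densities below.

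Several SOX sites in one interval were a frequent state of the wide class. SOX9 had 1 centre in 276 wide intervals, 2 in 105, 3 in 33 and 4 or more in 12, with 6 at most. SOX6 had 1 centre in 242, 2 in 147, 3 in 72 and 4 or more in 31, with 9 at most. When overlapping SOX9 and SOX6 peaks were joined into distinct sites, 42.9% (39.4% to 46.4%) of wide intervals held 2 or more sites, against 4.38% (4.09% to 4.68%) of narrower ones and 8.28% (7.65% to 8.95%) of those of 2000 to 3999 bp. Per length the difference was much smaller: the wide intervals held 2.80 distinct sites per 10 kb (2.63 to 2.97), against 2.39 (2.34 to 2.44) in narrower ones, a ratio of 1.17 (1.10 to 1.25), and against 1.89 (1.83 to 1.95) at 2000 to 3999 bp, a ratio of 1.48 (1.38 to 1.58). Neighbouring sites within a wide interval lay a median of 1394 bp apart (quartiles 910 and 2219 bp). In all, 4.30% of the SOX9 list and 4.63% of the SOX6 list had their centres in the wide intervals.

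The SOX peaks of wide intervals had scores like those of narrower intervals, and SOX9 peaks were longer. The median SOX9 score was 94.0 in wide and 99.2 in narrower intervals, and the median SOX6 score was 122 and 121. In intervals of 2000 to 3999 bp the medians were 81.4 for SOX9 and 103 for SOX6. SOX9 peaks measured 802 bp at the median in wide intervals and 673 bp in narrower ones, and SOX6 peaks 562 bp and 526 bp. Of SOX9 peaks in wide intervals, 64.9% (61.1% to 68.5%) met a SOX6 peak, against 60.5% (59.1% to 61.9%) in narrower intervals and 48.2% (46.0% to 50.5%) in those of 2000 to 3999 bp. For SOX6 peaks the share that met SOX9 was 49.1% in both classes and 37.8% at 2000 to 3999 bp. The lists also place some peaks end to end. Of SOX9 peaks in wide intervals, 16.2% lay within 100 bp of the next SOX9 peak, against 6.01% in narrower ones and 6.32% at 2000 to 3999 bp. For SOX6 the shares were 19.2%, 11.3% and 13.1%. The number of centres of both factors may therefore depend partly on how the peak caller divided a long stretch, which was not tested.

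SOX density was not a simple function of width. Over all H3K4me3 scores it was highest in the narrowest intervals, lowest at 2000 to 2999 bp and higher again among the wide ones. SOX9 had 3.11 centres per 10 kb (exact Poisson 2.92 to 3.30) in intervals under 1000 bp, 1.65 at 1000 to 1999 bp, 0.990 (0.937 to 1.05) at 2000 to 2999 bp and 1.14 (1.06 to 1.24) at 3000 to 3999 bp. Within the wide class it had 1.44 (1.28 to 1.62) at 4000 to 4999 bp, 1.74 (1.47 to 2.04) at 5000 to 5999 bp, 1.89 (1.57 to 2.26) at 6000 to 7999 bp and 2.22 (1.74 to 2.79) at 8000 bp or more. SOX6 followed the same course, with 3.56 under 1000 bp, 1.29 (1.23 to 1.35) at 2000 to 2999 bp, 2.08 (1.89 to 2.29) at 4000 to 4999 bp and 2.57 (2.24 to 2.94) at 5000 to 5999 bp. Above that SOX6 was level, with 2.65 at 6000 to 7999 bp and 2.52 (2.01 to 3.12) at 8000 bp or more. The share of intervals with SOX9 was 48.3% at 4000 to 4999 bp and 90.9% at 8000 bp or more, and for SOX6 it was 58.4% and 87.9%.

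**Figure D1:**
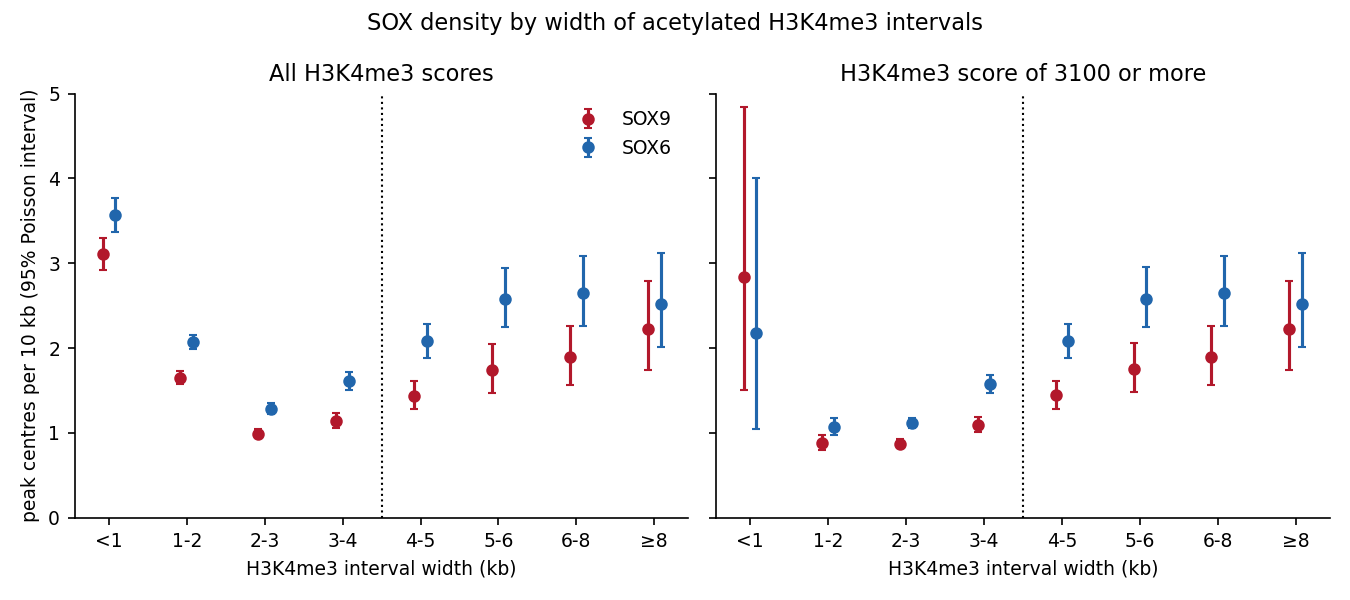
SOX9 and SOX6 peak centres per 10 kb (vertical axis, with exact Poisson 95% intervals) in acetylated H3K4me3 intervals by width in kb, for all scores on the left and for a score of 3100 or more on the right, with a dotted line at 4 kb. At all scores SOX9 has 3.11 centres per 10 kb under 1000 bp, 0.990 at 2000 to 2999 bp and 2.22 at 8000 bp or more.

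Against all narrower intervals together the wide ones had a moderately higher density. SOX9 had 1.65 centres per 10 kb (1.52 to 1.78) in wide and 1.46 (1.41 to 1.50) in narrower intervals, a ratio of 1.13 (conditional exact 1.04 to 1.23). SOX6 had 2.32 (2.17 to 2.48) and 1.84 (1.79 to 1.89), a ratio of 1.26 (1.18 to 1.35). The ratio depends on which narrower intervals are used. Against those of 2000 to 3999 bp it was 1.59 (1.45 to 1.74) for SOX9 and 1.68 (1.55 to 1.81) for SOX6, and against those under 1000 bp it was 0.530 (0.480 to 0.586) and 0.651 (0.596 to 0.711). With wide set at 3000 bp or more, the ratio to the rest turned to 0.888 for SOX9 and was 1.01 for SOX6. SOX peaks at or above their median score gave ratios of 1.10 (0.978 to 1.23) for SOX9 and 1.27 (1.16 to 1.40) for SOX6. Counting peaks by an overlap of 1 bp gave 1.06 (0.977 to 1.15) for SOX9 and 1.20 (1.12 to 1.28) for SOX6. The SOX9 intervals of both settings include 1.

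The narrowest intervals differ from the wide ones in the H3K4me3 score too. Only 1.18% of intervals under 1000 bp reached 3100, against 99.3% of wide ones. Between wide and narrower intervals with a score of 3100 or more, the ratio was 1.77 (1.61 to 1.93) for SOX9 and 1.90 (1.76 to 2.05) for SOX6. This alternative was chosen after the densities had been seen. Counting base pairs under SOX peaks in place of centres gave 16.9% of the wide and 10.7% of the narrower length under SOX9, and 15.4% and 10.7% under SOX6. The direction above 1 was found on 13 of 21 chromosomes for SOX9 and on 19 of 21 for SOX6. Leaving out 1 chromosome at a time kept the ratio between 1.11 and 1.15 for SOX9 and between 1.24 and 1.29 for SOX6.

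SOX9 and SOX6 were sparser at the ends of the wide intervals than in their body. With the edge defined as the outermost 1000 bp at each end, SOX9 had 1.30 centres per 10 kb (1.13 to 1.50) in the edges and 1.87 (1.70 to 2.05) in the middle, a ratio of 0.697 (0.586 to 0.827). SOX6 had 1.96 (1.74 to 2.19) in the edges and 2.55 (2.35 to 2.76) in the middle, a ratio of 0.766 (0.664 to 0.882). The median centre stood 1468 bp from the nearest end for SOX9 and 1419 bp for SOX6. Beyond the first stretch the density was nearly level: with each interval cut into 10 equal parts, SOX9 had 0.907 centres per 10 kb in the outer part at each end and 1.76, 1.77, 1.79 and 2.01 in the following ones up to the midpoint. SOX6 had 1.40 in the outer part and 2.71, 2.50, 2.29 and 2.71 after it. Neither factor was concentrated at the midpoint. In the 285 intervals of 5000 bp or more the ratio of edge to middle was 0.918 (0.720 to 1.16) for SOX9 and 0.834 (0.676 to 1.02) for SOX6, and among SOX9 peaks at or above their median score it was 0.828 (0.655 to 1.04), so that these intervals include 1.

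The decline towards the ends was steep. In the outermost 250 bp SOX9 had 0.641 centres per 10 kb (0.411 to 0.954), at 250 to 500 bp 0.988, and at 500 to 750 bp 1.74 (1.34 to 2.21). SOX6 had 0.828 (0.562 to 1.17), 1.68 and 2.38 (1.91 to 2.92) in the same steps. In the first 1000 bp outside an end, after leaving out sequence under any H3K4me3 interval, SOX9 had only 0.188 (0.124 to 0.274) and SOX6 0.328 (0.241 to 0.436). Intervals of 2000 to 3999 bp had the same form at a lower level, with 0.227 for SOX9 and 0.470 for SOX6 in the outermost 250 bp, and 0.0832 and 0.125 in the first 1000 bp outside. The lower density at the ends is thus not particular to the wide class.

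**Figure D2:**
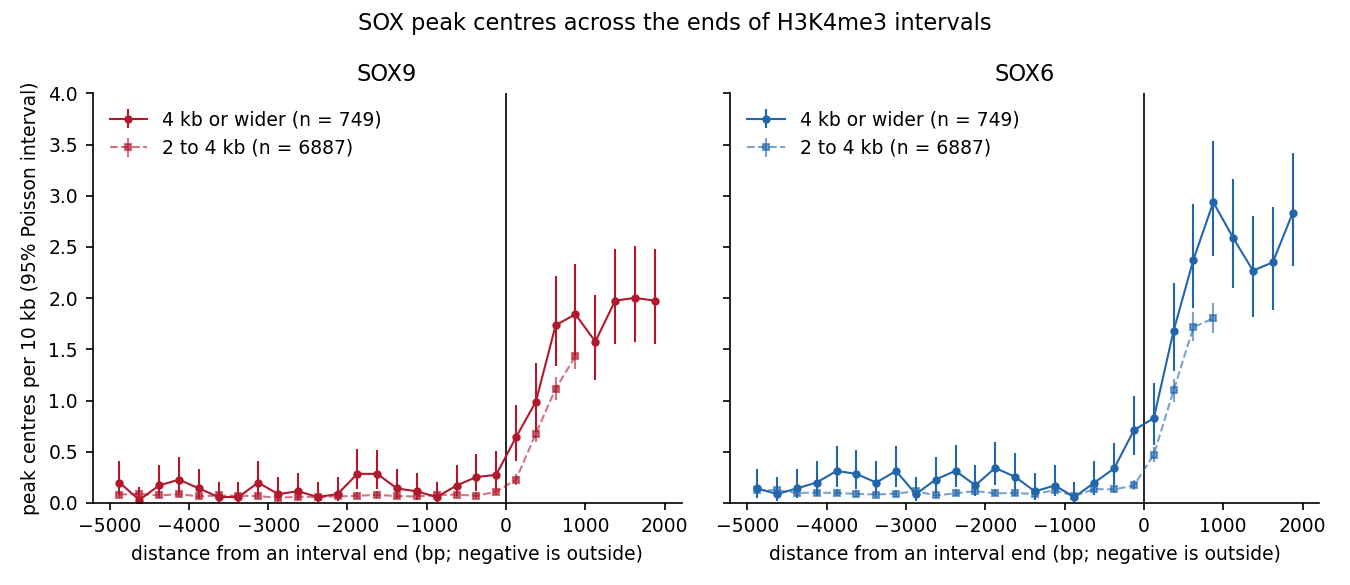
Peak centres per 10 kb (vertical axis, exact Poisson 95% intervals) in steps of 250 bp by distance from an interval end in bp, negative outside, for wide intervals (solid) and those of 2000 to 3999 bp (dashed), SOX9 left and SOX6 right. In wide intervals SOX9 stands at 0.641 in the first 250 bp inside and at 1.74 from 500 to 750 bp.

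Windows of equal length were compared so that a longer interval had no more room for a peak. The central 1000 bp held a SOX9 centre in 19.8% (17.1% to 22.8%) of wide intervals and in 15.0% (14.2% to 15.9%) of those of 2000 to 3999 bp. For SOX6 the shares were 26.3% (23.3% to 29.6%) and 15.8% (14.9% to 16.7%). Over all 14332 narrower intervals of 1000 bp or more the share was 18.3% (17.7% to 18.9%) for SOX9, within the interval of the wide class, and 20.8% (20.1% to 21.5%) for SOX6, below it. In the outermost 500 bp, SOX9 was present at 4.07% (3.18% to 5.20%) of wide ends and 2.24% (2.01% to 2.50%) of the ends of intervals of 2000 to 3999 bp, and SOX6 at 6.28% (5.16% to 7.62%) and 3.88% (3.57% to 4.21%). The ends of all narrower intervals of 1000 bp or more, at 4.49% for SOX9 and 6.34% for SOX6, were within the intervals of the wide ends. The score of SOX peaks was similar in both zones, with medians of 105 in the edges and 91.3 in the middle for SOX9, and 126 and 121 for SOX6.

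H3K27ac covered nearly the whole of the wide intervals and as a rule ended close to them. It lay over 92.0% of their length, against 87.0% in narrower intervals and 86.2% in those of 2000 to 3999 bp. Of wide intervals 37.9% were wholly under it, against 35.8% of narrower ones and 17.4% of those of 2000 to 3999 bp. The narrowest intervals, under 1000 bp, had as much as the wide class, with 93.6% of their length under H3K27ac. In 665 of the 749 (88.8%) a single H3K27ac peak met the interval, in 77 there were 2 and in 7 there were 3 or more. A single peak was more frequent in narrower intervals, at 97.3%, and in those of 2000 to 3999 bp, at 94.9%. Cover was 84.4% in the edges and 96.9% in the middle. It was under 0.5 of the length in 9 wide intervals.

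H3K27ac passed both ends of 306 wide intervals (40.9%), 1 end of 274 (36.6%) and no end of 169 (22.6%). The corresponding shares were 35.5%, 32.2% and 32.3% in all narrower intervals and 18.0%, 37.5% and 44.5% in those of 2000 to 3999 bp. The median extent beyond an end was 74 bp (quartiles 0 and 524 bp) over the 1498 wide ends, 4 bp (0 and 281 bp) over all narrower ends and 0 bp (0 and 83 bp) over the ends of intervals of 2000 to 3999 bp. Among the 886 wide ends that H3K27ac passed, the median extent was 401 bp. H3K27ac passed 59.1% of wide ends, against 74.7% of the ends of intervals under 1000 bp, whose median extent of 160 bp was above that of the wide class. An extent of 1000 bp or more was found at 14.6% of wide ends, 10.2% of all narrower ends and 4.99% of ends at 2000 to 3999 bp. One of 5000 bp or more was found at 2.14%, 0.790% and 0.378%. The farthest H3K27ac peak reached 16915 bp beyond the wide interval at chr19:36859929-36864642. It ran across the wide intervals at chr19:36867110-36872601 and chr19:36872881-36877880, and its extent was counted at each. Extents were not cut at neighbouring H3K4me3 intervals. Another H3K4me3 interval lay within 1000 bp of 13.5% of wide intervals and of 7.32% of those of 2000 to 3999 bp. The part of such neighbours in the long extents was not tested.

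Within an interval, the side where H3K27ac reached farther measured 306 bp at the median (quartiles 21 and 1023 bp). The other side had a median of 0 bp and an upper quartile of 161 bp, a gap that the ordering of the sides partly fixes. The H3K27ac stretch as a whole spanned a median of 5095 bp, from 881 to 27884 bp. Joining H3K27ac peaks up to 500 bp apart moved the median extent to 112 bp. With wide set at 3000 bp the median was 0 bp, and with wide set at 5000 bp it was 213 bp.

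**Figure D3:**
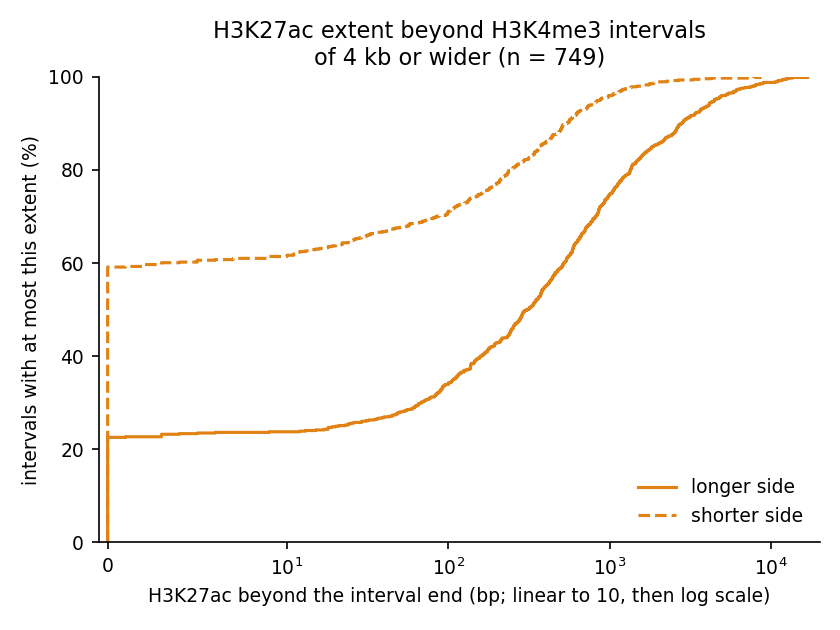
Share of the 749 wide intervals (vertical axis, percent) whose H3K27ac extends at most a given distance in bp beyond an end (horizontal axis, linear to 10 and then logarithmic), for the longer side (solid) and the shorter side (dashed) of each interval. The longer side has a median of 306 bp and the shorter side of 0 bp.

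H3K27ac extent moved with the presence of SOX. The 338 wide intervals with both factors had a median extent of 234 bp (quartiles 0 and 840 bp) beyond an end, and the 169 with neither had 0 bp (0 and 279 bp). H3K27ac passed both ends in 54.4% (49.1% to 59.7%) of those with both and 25.4% (19.5% to 32.5%) of those with neither. Width went the same way, at a median of 5024 bp with both factors and 4407 bp with neither, and its part in this difference was not tested. In the 580 wide intervals whose sides had unequal H3K27ac, 56.4% (52.2% to 60.5%) of SOX9 centres and 57.2% (53.7% to 60.7%) of SOX6 centres lay on the side of the midpoint where H3K27ac reached farther. The H3K27ac cover of each side inside the interval was not computed, so these shares have no baseline for the acetylated length.

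H3K4me1 framed the wide intervals and left their interior mostly uncovered. It lay over 46.8% of their length, with 74.3% of the edges and 29.3% of the middle under it. The median interval was 47.7% covered (quartiles 31.7% and 62.0%). Only 21 of the 749 (2.80%) had no H3K4me1 and 6 lay wholly under it. Among narrower intervals the extremes were more frequent, with 16.3% free of H3K4me1 and 17.3% wholly under it, although the summed cover was similar at 50.9%. Intervals of 2000 to 3999 bp were closer to the wide ones, with 6.98% free of H3K4me1, 1.79% wholly under it and a median cover of 48.0%. The uncovered interior was not particular to the wide class. H3K4me1 lay over 22.3% of the central 1000 bp of wide intervals and 20.5% of that of intervals of 2000 to 3999 bp. The central point was under it in 21.9% and 10.9%. An uninterrupted stretch of 2000 bp or more without H3K4me1 was present in 486 wide intervals (64.9%), and the longest such stretch of an interval had a median of 2400 bp.

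Across an end, H3K4me1 cover was 74.4% in the last 250 bp outside, 83.6% in the first 250 bp inside, 56.1% at 750 to 1000 bp and 24.4% at 1750 to 2000 bp. The mark was called within 500 bp outside both ends in 74.4% (71.1% to 77.4%) of wide intervals and outside neither end in 3.34%. Intervals of 2000 to 3999 bp also had their highest H3K4me1 cover at the border, but at a lower level, with 60.2% in the last 250 bp outside and 73.0% in the first 250 bp inside. Farther away, from 2000 to 5000 bp outside, 29.0% of sequence beside wide intervals was under H3K4me1 and 13.4% under H3K27ac, against 13.8% and 5.07% beside intervals of 2000 to 3999 bp.

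**Figure D4:**
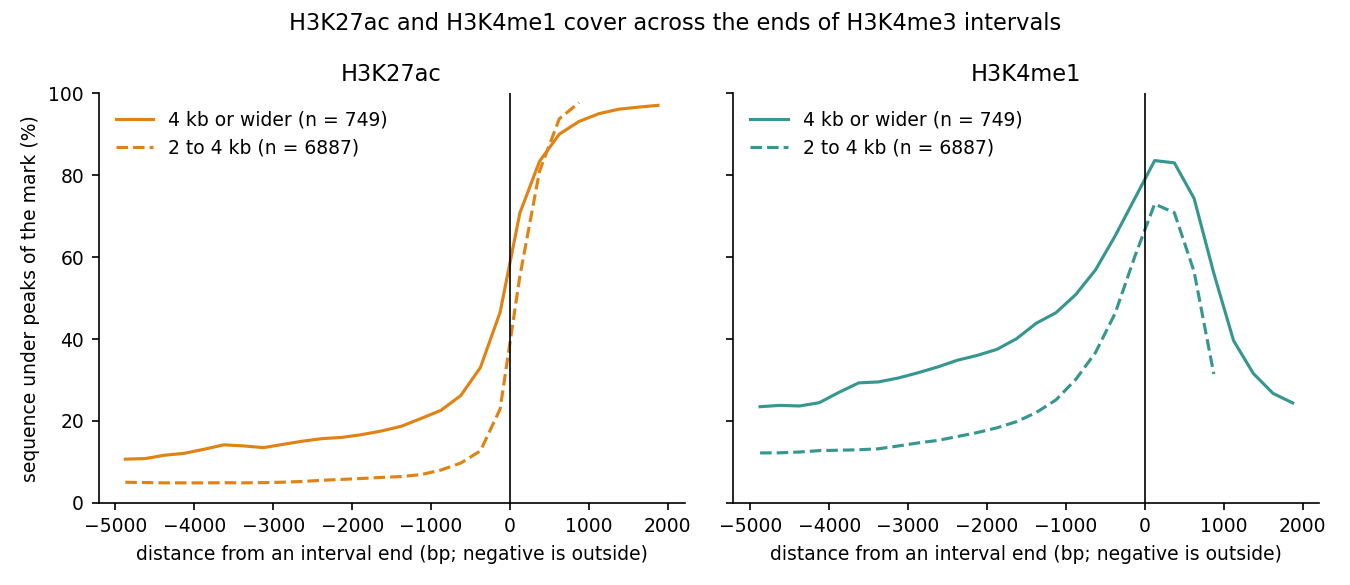
Percent of sequence under H3K27ac peaks (left) and H3K4me1 peaks (right) by distance from an interval end in bp, negative outside, for wide intervals (solid) and those of 2000 to 3999 bp (dashed). H3K4me1 stands highest in wide intervals in the first 250 bp inside, at 83.6%. Of the steps plotted inside, it is lowest at 1750 to 2000 bp, at 24.4%, where H3K27ac is at 97.1%.

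SOX centres in wide intervals lay mostly in the sequence without H3K4me1. SOX9 had 1.29 centres per 10 kb (1.13 to 1.47) under H3K4me1 and 1.96 (1.77 to 2.16) outside it, a ratio of 0.658 (0.558 to 0.775). SOX6 had 1.91 (1.71 to 2.12) and 2.68 (2.46 to 2.91), a ratio of 0.713 (0.621 to 0.817). Position and H3K4me1 go together, so the ratio was also taken within each zone. In the edges it was 0.508 (0.379 to 0.686) for SOX9 and 0.620 (0.486 to 0.795) for SOX6. In the middle it was 0.871 (0.699 to 1.08) and 0.849 (0.703 to 1.02), with intervals that include 1. The edge zone does not hold position fixed. From the outermost 250 bp to 750 to 1000 bp, H3K4me1 cover fell from 83.6% to 56.1%. Over the same steps SOX9 rose from 0.641 to 1.84 centres per 10 kb and SOX6 from 0.828 to 2.94. The edge ratios therefore still mix position with H3K4me1. Taken whole, intervals of 2000 to 3999 bp gave a ratio of 0.540 (0.490 to 0.595) for SOX9 and 0.693 (0.639 to 0.751) for SOX6. Over all narrower intervals the ratio was 1.16 (1.10 to 1.23) and 1.25 (1.19 to 1.32). Between whole wide intervals, H3K4me1 cover was not lower where SOX was present. It was 49.9% of the length of those with both factors and 43.6% of those with neither. The rank correlation of H3K4me1 cover with density over wide intervals was weakly positive, at 0.13 for SOX9 and 0.06 for SOX6. Nearly all SOX centres in wide intervals were under H3K27ac, 633 of 636 for SOX9 and 882 of 896 for SOX6. The wide class did not stand apart in this. In all narrower intervals 4728 of 4776 SOX9 and 5897 of 6034 SOX6 centres were under H3K27ac. At 2000 to 3999 bp the counts were 1881 of 1899 and 2482 of 2537. H3K27ac also covered most of the length of every class, as given above.

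H3K9me3, the mark of heterochromatin, was called in 44 wide intervals, or 5.87% (4.40% to 7.79%), against 3.60% (3.34% to 3.87%) of narrower ones and 2.77% (2.41% to 3.19%) of those of 2000 to 3999 bp. By length the order against all narrower intervals turned, with 1.15% of wide and 1.41% of narrower sequence under it, and 0.833% at 2000 to 3999 bp. Where it met a wide interval it covered a median of 683 bp, and it lay over 1.71% of the edges and 0.795% of the middle. SOX9 was present in 22 of these 44 intervals and SOX6 in 27, and among the other 705 wide intervals in 404 and 465. The share with SOX9 had a 95% interval of 35.8% to 64.2% where H3K9me3 was called, and 53.6% to 60.9% elsewhere.

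The 10 widest intervals all held both factors, with 1 to 4 SOX9 and 1 to 9 SOX6 centres each, and H3K27ac covered at least 98.9% of each. The widest lay at chr4:232960962-232975254 in rn5, counted from 1. It measured 14293 bp, held 2 SOX9 and 2 SOX6 centres, had 48.3% of its length under H3K4me1, and its H3K27ac passed the ends by 345 and 335 bp. The next, at chr7:126265907-126279054, held 4 SOX9 and 3 SOX6 centres with 21.2% under H3K4me1. That at chr1:222534045-222545384 had 1 SOX9 and 2 SOX6 centres, and its H3K27ac ran 1630 bp beyond one end and 12407 bp beyond the other. H3K9me3 met 2 of the 10, at chr6:79529713-79542216 over 9.09% and at chr9:87826391-87838516 over 14.5% of the length. The remaining 5 lay at chr18:79979816-79992764, chr7:44786614-44799495, chr3:167059414-167072277, chr19:50463370-50475687 and chr12:15830517-15841942. H3K4me1 cover among the 10 ranged from 15.4% to 76.1%.

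The 10 intervals with most SOX centres held 8 to 13 each and measured 4949 to 12882 bp, and 2 of them were also among the 10 widest. The first, at chr7:44786614-44799495, had 4 SOX9 and 9 SOX6 centres in 12882 bp. H3K27ac ran beyond it by 1359 and 4732 bp, and H3K4me1 covered 60.7%. The interval at chr4:242633133-242643338 had 5 and 6 centres, with H3K27ac 6915 bp beyond one end. The interval at chr2:18227473-18237071 had the most SOX9 centres of any wide interval, 6 beside 4 of SOX6, and only 8.88% of it was under H3K4me1. Several SOX9 peaks of this interval and of the first stood nearly end to end. Their number, and so this ranking, may depend partly on how the peak caller divided a long stretch, which was not tested.

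An interval at chr1:235503378-235511811 stood apart in its marks. It held 2 SOX9 and 7 SOX6 centres but no H3K4me1, its H3K27ac was divided into 4 peaks, and none of them passed an end. The other 6 had 8 centres each. They lay at chr5:75847707-75853446, chr7:141657241-141662189, chr10:83941645-83948525, chr12:15830517-15841942, chr12:40768557-40777520, and chr18:49133214-49140175. The shortest of them, on chromosome 7, held 3 SOX9 and 5 SOX6 centres in 4949 bp. H3K9me3 was called in none of the 10.

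**Figure D5:**
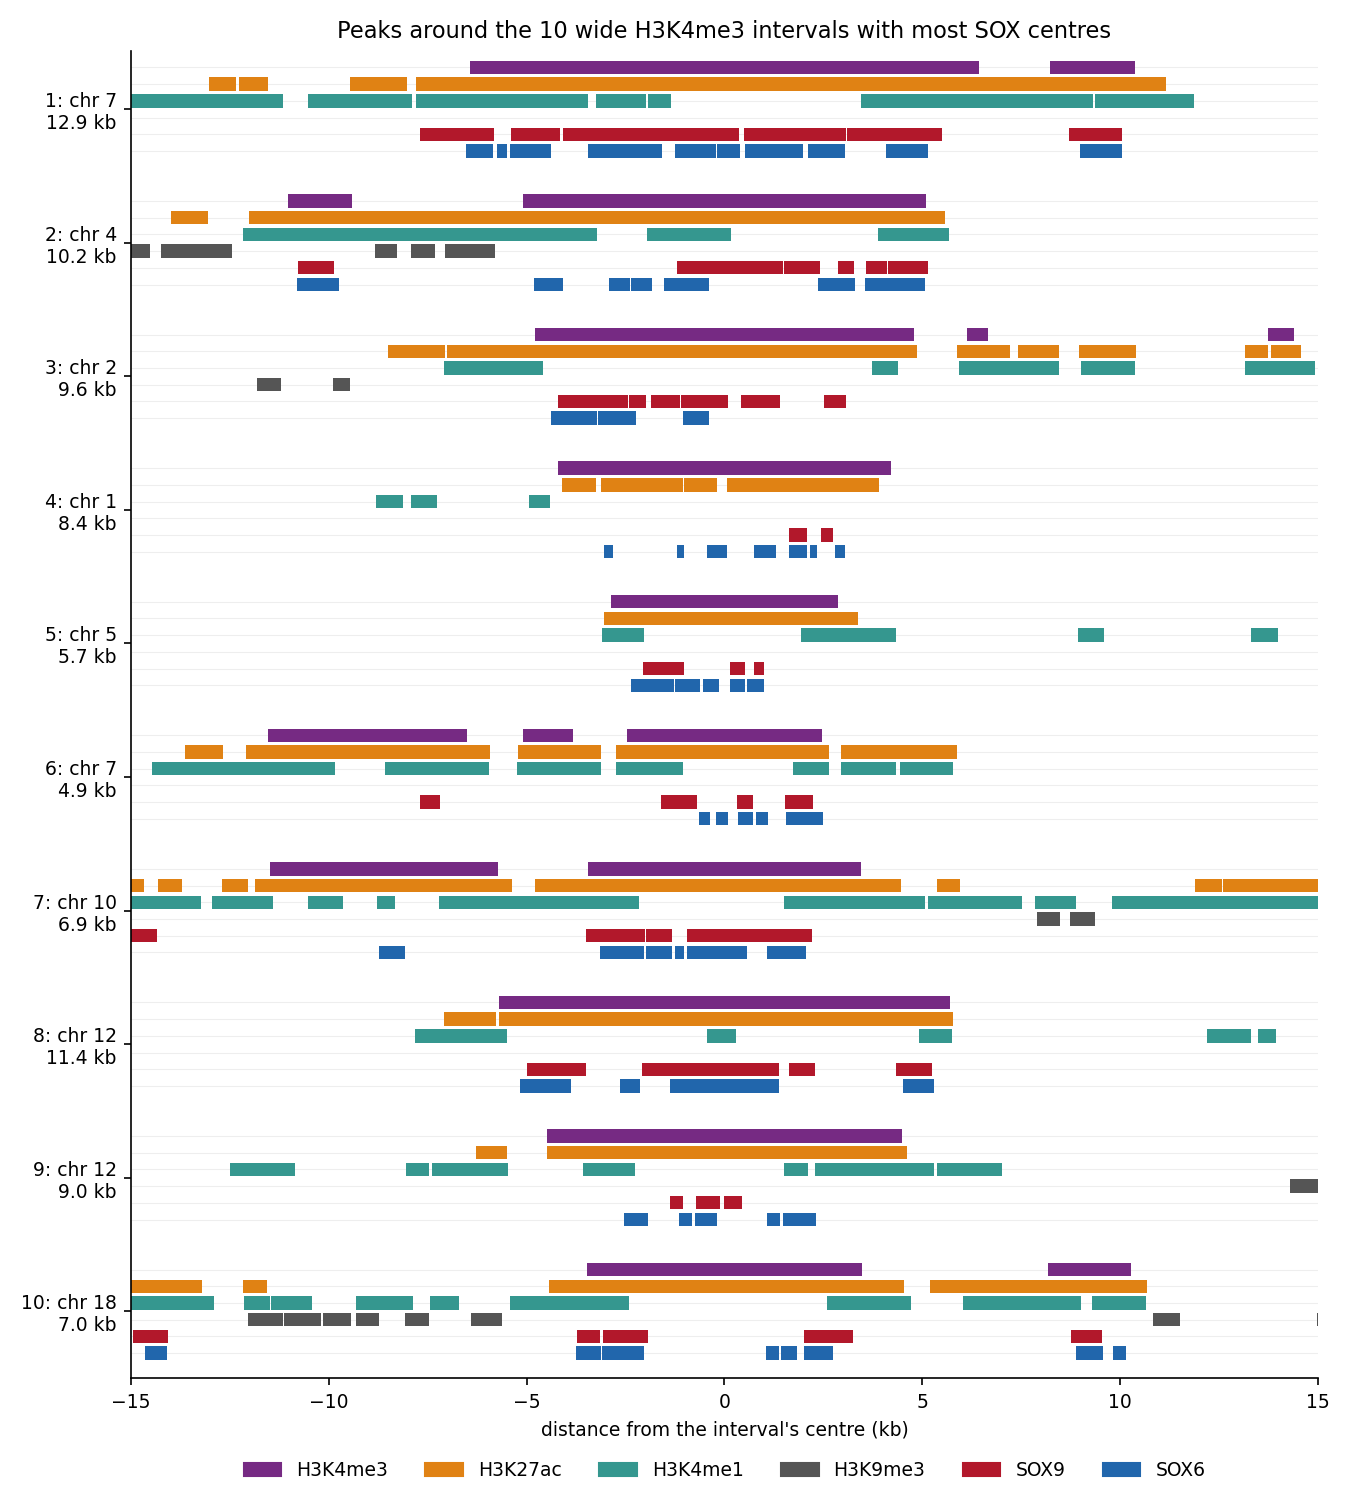
Peaks of the 6 lists within 15 kb of the centre of each of the 10 wide intervals with most SOX centres (horizontal axis, distance from the centre in kb). H3K27ac covers between 90.2% and 100% of each interval. SOX9 and SOX6 peaks lie along the intervals and some cross an end, with 4 SOX9 and 9 SOX6 centres inside the first.

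Wide intervals also occurred without SOX, as 169 had no centre of either factor. The widest of these lay at chrX:75145403-75153558 and measured 8156 bp, with H3K27ac over only 49.8% and H3K4me1 over 8.37% of it. The next, at chr14:82970403-82978087, had H3K27ac over its whole length and 3732 and 895 bp beyond its ends, and H3K4me1 over 61.6%. The other 3 of the 5 widest lay at chr2:184960644-184967610, chr3:126601611-126608510 and chr5:76447624-76454061. They measured 6438 to 6967 bp, and H3K27ac covered 93.8% to 99.1% of them.

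At the limit of 4000 bp, the 3 intervals just inside measured 4000 to 4003 bp and lay at chr9:16836095-16840094, chr3:69745841-69749841 and chr1:95704275-95708277. They held 1 SOX9 and 2 SOX6 centres together, both factors in the interval on chromosome 1. The 3 just outside measured 3996 to 3998 bp and lay at chr13:102192868-102196865, chr13:49559395-49563391 and chr14:80305669-80309664. They held 1 SOX9 and 3 SOX6 centres together.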

How the data were processed

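Per the labels, RCS cells gave 6 immunoprecipitated and 4 input libraries. The authors deposited 1 peak list per immunoprecipitated library, with a start, an end and a score per peak, and MACS, a program that calls peaks, appears in the peak names. Not given in the sources used here: the scale of the score, the settings of MACS and the aligner. CASAVA 1.8 and rn5, a rat genome build, come from the submitters' processing notes. The input files are raw read counts per chromosome, per the file headers.

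Intervals were read as counted from 0 and printed counting from 1. A SOX peak belonged to the interval that holds its centre. Shares carry Wilson 95% intervals, densities exact Poisson intervals and ratios conditional exact binomial intervals, from SciPy 1.17.1 in Python 3.11.15. Neighbouring peaks are not independent, so these may be too narrow. No test was run over samples, and the code for densities and ratios was tested on simulated data.

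The wide class, the comparisons, the alternatives and the rule for named intervals were chosen with earlier results of these data known. The rule took the 10 widest wide intervals, the 10 with most SOX centres, the 5 widest without SOX and the 3 nearest the limit on each side. Input read density was the number of exact matches per Mb up to the last peak of a chromosome, relative to the median chromosome, averaged over the 4 libraries. A planned count of genes was not made, as no annotation of rn5 was used here.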

Additional observations from a re-analysis of the deposited data

How the results depend on the processing

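Of 92 values recomputed under other settings, 63 stayed within the 95% interval of the reported value, 28 moved outside it and 1 reversed. For cover percentages this was the binomial interval over intervals. With wide set at 3000 bp, the SOX9 ratio to narrower intervals reversed to 0.888 and the SOX6 ratio was 1.01, since the 1638 intervals of 3000 to 3999 bp, with 1.14 SOX9 centres per 10 kb, joined the wide class. The share with SOX9 was then 40.6%, that with SOX6 48.6%, the median H3K27ac extent 0 bp, H3K27ac cover 89.5% and the share with H3K9me3 4.06%. At 5000 bp the shares with SOX9 and SOX6 were 70.9% and 77.5%, the ratios 1.29 and 1.40, the SOX9 ratio of edge to middle 0.918, the extent 213 bp and H3K27ac cover 94.4%. Joining H3K4me3 intervals up to 1000 bp apart gave H3K27ac cover of 89.5%. H3K4me3 intervals at or above the median score gave ratios of 1.71 for SOX9 and 1.78 for SOX6, and those of 3100 or more, a setting added after the data had been seen, 1.77 and 1.90. SOX peaks at or above the median score gave shares of 33.9% and 45.0% and a SOX9 edge ratio of 0.828. With these peaks the SOX9 ratio to narrower intervals counted as unmoved at 1.10, though its own interval of 0.978 to 1.23 includes 1. The same held for an overlap of 1 bp, at 1.06 (0.977 to 1.15). Base pairs under SOX peaks gave ratios of 1.57 and 1.45, and an edge of 500 bp gave edge ratios of 0.441 and 0.487. Other marks at or above their median score gave H3K4me1 cover of 41.0% and an H3K9me3 share of 3.60%. Joining H3K27ac peaks up to 500 bp apart, also added later, gave an extent of 112 bp. Except where a value or its own construction shows it, the cause was not tested. Without chromosomes 7, 9, 11 and 16, all 10 values stayed within their intervals. No paired analysis was possible because each antibody has 1 library. The depth of the immunoprecipitated libraries was not used here, so a SOX peak below the lowest score its list holds counts as absent.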

Other observations

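The nearest other H3K4me3 interval was a median of 16005 bp away for wide and 16085 bp for narrower intervals, and 13.5% (11.2% to 16.1%) of wide intervals had one within 1000 bp, against 12.3% of narrower ones and 7.32% (6.73% to 7.96%) of those of 2000 to 3999 bp. The chromosomes named next were picked, after their values were seen, as the extremes of 21 in percent wide or in the share with SOX9. By chromosome, 5.86% (4.74% to 7.21%) of acetylated H3K4me3 intervals were wide on chromosome 7 and 2.08% (1.14% to 3.79%) on chromosome X, where the input read density relative to the median chromosome was 1.91 and 0.595. On chromosome 17, 28.6% of 28 wide intervals held SOX9 and 60.7% held SOX6, and on chromosome 9, 76.6% and 80.9% of 47 did. SOX9 and SOX6 centres were slightly fewer on the side of the midpoint with more H3K4me1, a side that held 43.9% (40.1% to 47.8%) of SOX9 and 44.2% (40.9% to 47.5%) of SOX6 centres. Over the 749 wide intervals the rank correlation of width with SOX density was weak, at 0.11 for SOX9 and 0.09 for SOX6, a description of intervals that share 1 library per factor.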
